A study of Mus musculus with 8 samples.

Results

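The proteins of the cytosolic ribosome are encoded by a large family of genes whose transcripts are among the most abundant in any growing cell. Their products are numbered by subunit, Rpl for the large subunit, which joins amino acids into protein, and Rps for the small subunit, which binds and decodes the mRNA. Most of these mRNAs start with a C followed by an unbroken stretch of pyrimidines, through which mTOR signaling and Larp1 set how often they are translated. Lens fiber cells make crystallins in very large amounts before they degrade their nuclei and other organelles.

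Members were the probe sets of an Affymetrix mouse genome array that were annotated to 1 gene alone, with a symbol that started with Rpl or Rps and a digit or was Rplp0, Rplp2 or Rpsa. The rule took 101 of 22626 probe sets, which represent 49 of 12393 genes (46 probe sets of 26 large subunit genes and 55 of 23 small subunit genes). Of these genes 42 are canonical ribosomal protein genes, 6 are paralogs (Rpl22l1, Rpl39l, Rpl3l, Rpl7l1, Rps27l and Rps4l) and 1 is a pseudogene (Rps15a-ps6). The 6 probe sets of S6 kinases were left out, as were 102 that name a ribosomal protein gene together with other genes, so that Rplp1 and Rpl5 have no probe set here.

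Lenses of dnBrg1 transgenic embryos (4 samples) were compared with lenses of wild type littermates (4 samples) at embryonic day 15.5 (E15.5), on a strain given as a mixed background. The methods do not state how many embryos or lenses went into a sample, and a lens counted below means 1 sample. The transgene encodes a Brg1 that blocks the normal protein; Brg1 is an ATPase of SWI/SNF chromatin remodeling complexes. It was driven by the αA-crystallin promoter, which is active in lens cells, and came from 1 founder line. In these arrays the effect of the insertion site therefore cannot be told apart from that of the transgene. The authors reported similar lens abnormalities in all founders obtained, before this line was selected. The endogenous Brg1 gene is intact in both groups. In the labels, 6 samples (dnBrg1 replicates 1 and 2 and all wild type) carry a remark on RNA bound to polysomes, and dnBrg1 replicates 3 and 4 a remark on total RNA alone, whereas total RNA is the stated molecule of all 8. The comparison asks how ribosomal protein transcripts respond to the loss of Brg1 activity in the lens.

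Values are log2 intensities, log2 fold changes (with ± standard error) are those of dnBrg1 lenses over wild type lenses, and a probe set was called at a limma adjusted p under 0.05. The 8 lens fiber markers measured were all above the array median, and their summed intensity was 105866 to 115455 in dnBrg1 and 104589 to 111014 in wild type lenses. Of these markers, Bfsp1 (log2 fold change 1.54) and Gja3 (1.53) were called higher, Cryga (-0.36) was called lower and 5 were not called. The groups differed in the array's own controls of RNA quality. The 3' minus 5' log2 difference of Gapdh and β-actin, averaged, was 0.65, 0.65, 0.59 and 0.60 in dnBrg1 replicates 1 to 4 and 1.90, 2.66, 1.43 and 2.20 in wild type replicates 1 to 4. A larger difference means that less of the signal reached the 5' end of the transcript. Each control differed between the groups without overlap (exact two-sided permutation p = 0.0286, the smallest that 70 assignments can give). The summed intensity of 8 macrophage markers was 2958 to 5389 in dnBrg1 and 8741 to 10414 in wild type lenses. That sum was carried by Csf1r (log2 fold change -2.13) and C1qb (-2.15), both called lower, while the other 6 had positive log2 fold changes, of which 3 were called (Cx3cr1 0.71, Lyz2 0.90 and Fcgr3 0.60). The summed intensity of 7 skeletal muscle markers was 555 to 4257 in dnBrg1 and 409 to 780 in wild type lenses, and the part of these cells in the results was not tested. The summed intensities of the other 7 marker lists (lens epithelium, retina and neurons, red blood cells, endothelium, mesenchyme, pigment cells and surface epithelium) overlapped between the groups. Some of these sums varied widely among dnBrg1 lenses. For mesenchyme the sum was 822 to 9709 in dnBrg1 and 1603 to 4650 in wild type lenses. For surface epithelium it was 670 to 3932 in dnBrg1 and 746 to 1016 in wild type lenses. The part of these tissues in the results was not tested. Of the 9 retina and neuron markers, though, 6 were called lower and 1 (Tubb3) higher, with a median log2 fold change of -0.78, and their part in the results was not tested either. Calls were also made for endothelium (3 higher and 2 lower of 7 markers), lens epithelium (2 and 2 of 6) and pigment cells (1 lower of 4). Over all genes 40.7% were called. Fewer cells of a type and less RNA per cell cannot be told apart in whole lenses.

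Start sites are shown for genes at both ends of the response and for some genes whose brightest probe set was not called. They are shown since the pyrimidine stretch at the start is what these mRNAs are known for. Each stretch holds the 15 bases before and the 15 bases after the annotated start (RefSeq, GRCm38.p6), and capitals mark its longest run of C and T.
Rplp0, chr5:115559452-115559481, plus strand: gTCTTCgggtttcgaggaccgcctggttct
Rpl27, chr11:101442230-101442259, plus strand: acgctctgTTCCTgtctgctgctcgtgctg
Rplp2, chr7:141447636-141447665, plus strand: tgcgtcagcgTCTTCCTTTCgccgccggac
Rps9, chr7:3704026-3704055, plus strand: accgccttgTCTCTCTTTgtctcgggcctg
Rps26, chr10:128626492-128626521, minus strand: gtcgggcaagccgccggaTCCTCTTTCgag
Rpl35, chr2:39005117-39005146, minus strand: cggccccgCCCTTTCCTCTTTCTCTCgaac
Rps18, chr17:33955651-33955680, minus strand: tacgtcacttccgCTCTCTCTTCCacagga
Rps6, chr4:86857353-86857382, minus strand: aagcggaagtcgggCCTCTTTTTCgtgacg

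In the stretches shown, Rps26, which fell, and Rplp2 and Rps9, which rose, all carry a run of at least 8 pyrimidines, as do the 3 genes whose brightest probe set was not called (Rpl35, Rps18 and Rps6). Rplp0 and Rpl27, which rose the most among the canonical large subunit genes, have none that long at the annotated start. RefSeq start sites were matched for 42 of the 49 genes. A run of 8 or more pyrimidines within 25 bases of a start was found in 23 of the 42 genes (54.8%), against 23.1% of 9887 genes on the array. By the call of the brightest probe set, it was found in 5 of 13 genes that rose, in 17 of 28 that were not called and in Rps26. The run was thus found among genes that rose, among genes that were not called and in the 1 matched gene that fell. The count takes a run anywhere in that window and not only one that begins at the start. It therefore cannot say which mRNAs begin with the pyrimidine stretch.

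The 250 bases before the starts of Rplp0 and Rps26 are shown because these were the bright canonical genes that kept their calls in opposite directions under every alternative. Capitals mark an Sp1 core (GGGCGG) in Rplp0 and an ETS core (CCGGAAG) in Rps26.
Rplp0, chr5:115559217-115559466, plus strand: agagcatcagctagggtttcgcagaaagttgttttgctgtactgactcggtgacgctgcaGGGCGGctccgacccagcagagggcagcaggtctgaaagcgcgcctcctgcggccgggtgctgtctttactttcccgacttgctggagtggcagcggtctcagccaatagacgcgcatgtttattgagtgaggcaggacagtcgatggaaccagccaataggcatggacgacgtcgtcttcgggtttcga
Rps26, chr10:128626507-128626756, minus strand: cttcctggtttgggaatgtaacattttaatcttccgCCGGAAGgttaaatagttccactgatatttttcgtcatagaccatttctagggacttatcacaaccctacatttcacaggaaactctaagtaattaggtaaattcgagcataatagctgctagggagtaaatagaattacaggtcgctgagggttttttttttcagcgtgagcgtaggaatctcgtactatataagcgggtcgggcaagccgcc

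Motifs were searched on both strands from 250 bases before to 50 bases after a start. The ETS core CCGGAAG was found in 21 of 42 member genes (50.0%), against 16.3% of 9887 genes. The YY1 core AANATGGC was found in 7 (16.7%), against 8.55%, the Sp1 core GGGCGG in 24 (57.1%), against 61.0%, and the TATA box TATAAA in 6 (14.3%), against 11.9%. The ETS core was present in 5 of 13 genes that rose and 15 of 28 that were not called. A match describes the letters in the window and not a bound site.

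The ribosomal protein probe sets were bright, and their median log2 fold change was small. The mean log2 intensity of the members had a median of 13.43, against 7.69 for all probe sets, and 59 of the 101 members were at 13 or more. This is the brightness of probe sets and not a number of transcripts. Of the 101 probe sets, 24 were higher and 12 lower in dnBrg1 lenses, a share of 35.6%, against 40.8% of all probe sets on the array. The members were called higher in 23.8% and lower in 11.9%, against 19.8% higher and 21.0% lower of all. The median log2 fold change was 0.13 for the members and -0.08 for all probe sets. A change of at least 1.5-fold was called in 10 higher and 8 lower of the 101 members, against 28.0% of all probe sets in either direction. Of the 59 members with a mean log2 intensity of 13 or more, 8 were higher and 3 lower by this measure. The share over all probe sets of that brightness was 8.55%.

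Groups that do not overlap, with all 4 dnBrg1 lenses above or below all 4 wild type lenses, were found for 40 higher and 16 lower members, against 40.1% of all probe sets. The 40 higher members are 39.6% of the list, against 19.5% of all. By the brightest probe set of each gene, the groups did not overlap in 25 higher and 7 lower of the 49 genes, against 40.3% of all genes. Among the 456 probe sets with a mean log2 intensity of 13 or more, 31.1% were called, 16.7% higher and 14.5% lower. The 59 members in that range were called higher in 19 cases (32.2%) and lower in 3 (5.08%). Their groups did not overlap in 34 higher and 8 lower cases, against 56.1% of the 456. With a variance prior that follows intensity, 38 members were called higher and 16 lower, against 41.7% of all probe sets.

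**Figure D1:**
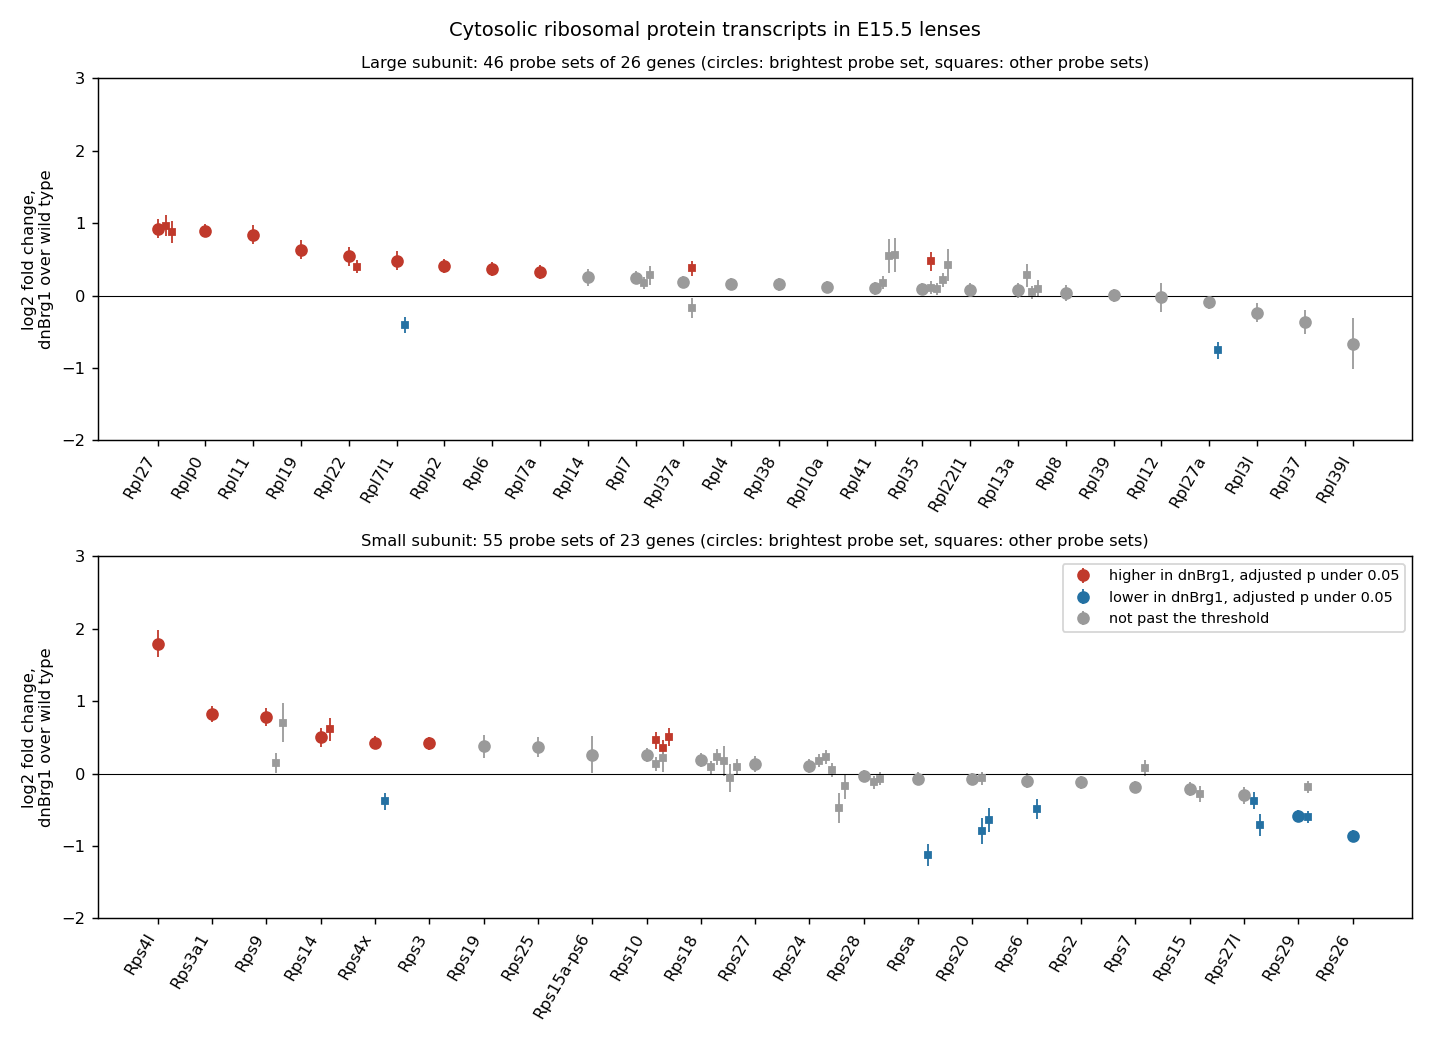
Log2 fold change (dnBrg1 over wild type, y axis) of all 101 probe sets by gene, with standard errors, for the large subunit (top) and the small subunit (bottom); circles are the brightest probe set of a gene, squares its other probe sets, and color gives the call. Of the brightest probe sets of the large subunit 9 rose and none fell, while 6 rose and 2 fell in the small subunit.

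The large subunit had more increases and fewer decreases than the small subunit by counts alone. Of 46 large subunit probe sets 14 were called higher and 2 lower, and of 55 small subunit probe sets 10 were called higher and 10 lower. With the brightest probe set of each gene, 9 of 26 large subunit genes rose and none fell, and 6 of 23 small subunit genes rose and 2 fell. Over all genes 17.5% rose and 23.3% fell on the same rule. By limma's unadjusted p under 0.05, 10 large and 13 small subunit genes differed, 46.9% of the 49 genes, against 49.6% of all genes. The median log2 fold change was 0.18 for large and 0.08 for small subunit probe sets.

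The mean over canonical genes was taken in each sample to show this spread. For 22 large subunit genes it was 12.83, 12.87, 12.90 and 12.88 in dnBrg1 replicates 1 to 4, and 12.67, 12.50, 12.67 and 12.57 in wild type replicates 1 to 4. For 20 small subunit genes it was 13.18, 13.18, 13.21 and 13.17 in dnBrg1 replicates 1 to 4, and 13.13, 12.97, 13.14 and 13.06 in wild type replicates 1 to 4. Both means were higher in every dnBrg1 lens than in any wild type lens, and the large subunit mean moved more (0.27 against 0.11).

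Within a lens, the large minus the small subunit mean was -0.31 ± 0.02 in dnBrg1 and -0.48 ± 0.01 in wild type lenses (SD, n = 4 each), again without overlap. Most of this difference of 0.16 came from a pair of genes chosen after their values were seen. Both are small subunit genes that fell, so that leaving them out had to narrow the difference. Without Rps26 and Rps29 the large minus small mean was -0.27 ± 0.03 in dnBrg1 and -0.34 ± 0.01 in wild type lenses (SD, n = 4 each). The difference between the groups was then 0.07, still without overlap. Over all canonical probe sets with a mean log2 intensity of 13 or more, these genes included, it was 0.22. The 3' minus 5' difference of the controls moved with both subunit means, since wild type replicate 2 had the largest control difference and the lowest means of both subunits.

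**Figure D2:**
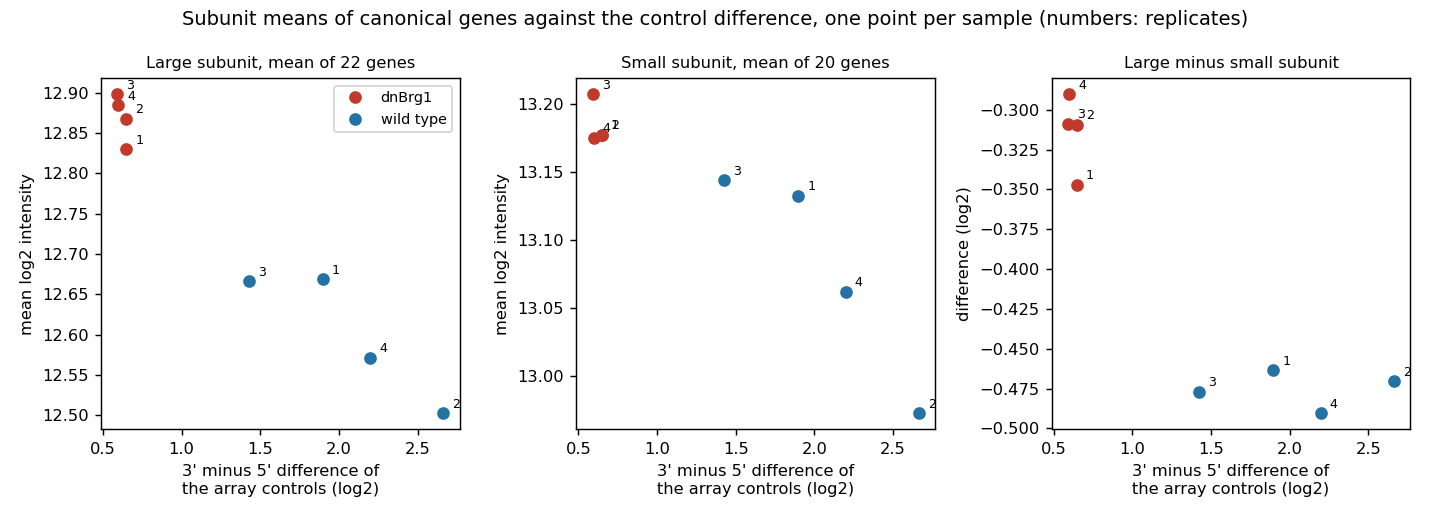
Mean log2 intensity of 22 large subunit genes (left) and 20 small subunit genes (middle), and the large minus the small mean (right), plotted on the y axes against the 3' minus 5' log2 difference of the array controls; each point is 1 lens sample with its replicate number. All 4 dnBrg1 lenses sit at control differences of 0.59 to 0.65 and above the wild type lenses in every panel.

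The stalk of the large subunit, which recruits the GTPase factors of translation, was represented by 3 genes. Rplp0 is the protein that anchors the stalk to the ribosome. Its probe set had log2 intensities of 13.80, 13.79, 13.95 and 13.88 in dnBrg1 lenses and of 13.02, 12.9999, 12.93 and 12.89 in wild type lenses. The groups were far apart compared with their spread, and Rplp0 rose 1.86-fold (log2 fold change 0.90 ± 0.09, limma adjusted p = 8.8e-05). Rplp2, which forms the mobile arm of the stalk with Rplp1, had 14.55, 14.50, 14.55 and 14.54 in dnBrg1 lenses and 14.16, 13.96, 14.27 and 14.10 in wild type lenses. It rose 1.33-fold (log2 fold change 0.41 ± 0.10, limma adjusted p = 0.0084) without overlap. Rpl12, at the stalk base, was dim and not called (log2 fold change -0.03 ± 0.20, limma adjusted p = 0.93).

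Rpl27 and Rpl11 are large subunit proteins of which human mutations cause Diamond-Blackfan anemia, and Rpl11 binds the 5S rRNA together with Rpl5. The brightest Rpl27 probe set had 14.09, 14.09, 14.12 and 14.11 in dnBrg1 lenses and 13.21, 12.91, 13.54 and 13.04 in wild type lenses. The dnBrg1 lenses were nearly identical while the wild type lenses were spread, with replicate 3 the highest and replicate 2 the lowest. All 3 Rpl27 probe sets were called higher, with log2 fold changes of 0.93, 0.96 and 0.88 (limma adjusted p = 0.00062, 0.00074 and 0.0013). Rpl11 had 14.11, 14.11, 14.07 and 14.10 in dnBrg1 lenses and 13.38, 12.99, 13.52 and 13.14 in wild type lenses. It showed the same order of the wild type lenses, and rose 1.79-fold (log2 fold change 0.84 ± 0.13, limma adjusted p = 0.00069).

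Rpl19, which contributes to a bridge between the subunits, had 14.17, 14.03, 14.22 and 14.20 in dnBrg1 lenses and 13.59, 13.25, 13.78 and 13.46 in wild type lenses. It rose 1.55-fold (log2 fold change 0.64 ± 0.13, limma adjusted p = 0.0033), and the groups did not overlap. Rpl22, an RNA-binding protein needed for T cell development in mice, was called higher by both of its probe sets (log2 fold change 0.54 ± 0.13 and 0.40 ± 0.09, limma adjusted p = 0.0099 and 0.0075). The brighter had 12.96, 13.31, 13.36 and 13.29 in dnBrg1 lenses and 12.73, 12.63, 12.92 and 12.47 in wild type lenses. Its dnBrg1 replicate 1 lay only slightly above wild type replicate 3. Of the other 5 canonical large subunit genes with a call, named after their values were seen, Rpl6 and Rpl7a rose by their only probe set (log2 fold change 0.37 and 0.33). The Rpl7a call was lost without dnBrg1 replicate 1, 2 or 4 (adjusted p of up to 0.056). Rpl35 and Rpl37a had 1 dimmer probe set called higher and Rpl27a 1 called lower, while their brightest was not called.

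Rps26 fell more than any other bright member. Rps26 lines the channel through which mRNA leaves the small subunit and contacts bases upstream of the start codon. Its probe set had 13.27, 13.29, 13.32 and 13.29 in dnBrg1 lenses and 14.17, 14.11, 14.18 and 14.15 in wild type lenses. Each group was tight, with SDs of 0.022 in dnBrg1 and 0.028 in wild type lenses, and Rps26 was 1.81-fold lower in dnBrg1 lenses (log2 fold change -0.86 ± 0.08, limma adjusted p = 7.1e-05).

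Rps29, a zinc-binding protein of the head of the small subunit, was the other small subunit gene whose brightest probe set fell. It had 13.79, 13.73, 13.85 and 13.87 in dnBrg1 lenses and 14.39, 14.42, 14.35 and 14.42 in wild type lenses. The groups did not overlap, and Rps29 was 1.5-fold lower in dnBrg1 lenses (log2 fold change -0.59 ± 0.09, limma adjusted p = 0.00066). A further Rps29 probe set fell as well (-0.60 ± 0.09, limma adjusted p = 0.00062), while the remaining one had a log2 fold change of -0.19 ± 0.08 (limma adjusted p = 0.11). The last also separated the groups without overlap.

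Rps3a1 and Rps14, of the platform of the small subunit on which Rps26 also lies, rose. Rps3a1 had 14.23, 14.25, 14.28 and 14.26 in dnBrg1 lenses and 13.47, 13.32, 13.65 and 13.26 in wild type lenses. It rose 1.77-fold (log2 fold change 0.83 ± 0.11, limma adjusted p = 0.00033) without overlap. Rps14 was called higher by both of its probe sets (log2 fold change 0.50 ± 0.13 and 0.61 ± 0.16, limma adjusted p = 0.014 and 0.012). The brighter had 13.72, 13.75, 13.87 and 13.80 in dnBrg1 lenses and 13.46, 12.91, 13.42 and 13.35 in wild type lenses, with wild type replicate 2 the lowest by far.

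Rps9 and Rps3, both near the site where mRNA enters the small subunit, rose as well. The brightest Rps9 probe set had 14.08, 13.97, 14.13 and 14.10 in dnBrg1 lenses and 13.33, 12.99, 13.55 and 13.26 in wild type lenses. It rose 1.72-fold (log2 fold change 0.78 ± 0.13, limma adjusted p = 0.0011), whereas the other 2 Rps9 probe sets were not called (log2 fold change 0.15 ± 0.14 and 0.70 ± 0.27). Rps3, named after its values were seen, had 13.89, 13.87, 13.93 and 13.93 in dnBrg1 lenses and 13.49, 13.46, 13.55 and 13.46 in wild type lenses, a log2 fold change of 0.42 ± 0.09 (limma adjusted p = 0.0039). Its wild type lenses were closer together than those of Rps9.

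Rps4x, the X-linked S4 protein, gave opposite calls by its probe sets. The brighter had 13.70, 13.74, 13.70 and 13.72 in dnBrg1 lenses and 13.39, 13.33, 13.22 and 13.22 in wild type lenses, and was called higher (log2 fold change 0.43 ± 0.09, limma adjusted p = 0.0044). The dimmer, at means of 6.18 in dnBrg1 and 6.57 in wild type lenses, went the other way (-0.39 ± 0.11, limma adjusted p = 0.023). Leaving out any of 4 single samples (dnBrg1 replicate 3 or 4, or wild type replicate 1 or 4) ended the second call, with adjusted p-values of up to 0.061.

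Rps19, Rps6 and Rpsa were not called by their brightest probe sets. Rps19, the gene most often mutated in human Diamond-Blackfan anemia, had 13.70, 13.70, 13.69 and 13.63 in dnBrg1 lenses and 13.48, 12.83, 13.60 and 13.33 in wild type lenses (log2 fold change 0.37 ± 0.16, limma adjusted p = 0.089). The groups did not overlap, and wild type replicate 2 was again the lowest. Rps6, the substrate of the S6 kinases, had a log2 fold change of -0.10 ± 0.10 (limma adjusted p = 0.46), and its dimmer probe set, at means of 5.38 in dnBrg1 and 5.86 in wild type lenses, was called lower (-0.49 ± 0.14, limma adjusted p = 0.021) but not without dnBrg1 replicate 1, dnBrg1 replicate 4 or wild type replicate 4 (adjusted p of up to 0.063). Rpsa, which shares its gene with the laminin receptor precursor, had 14.25, 14.19, 14.28 and 14.25 in dnBrg1 lenses and 14.34, 14.42, 14.23 and 14.27 in wild type lenses (log2 fold change -0.07 ± 0.09, limma adjusted p = 0.55). These overlapped. Its dim probe set had 5.16, 4.86, 5.29 and 4.86 in dnBrg1 lenses and 5.93, 6.04, 6.31 and 6.39 in wild type lenses, which passed the test (-1.12 ± 0.15, limma adjusted p = 0.00034).

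**Figure D3:**
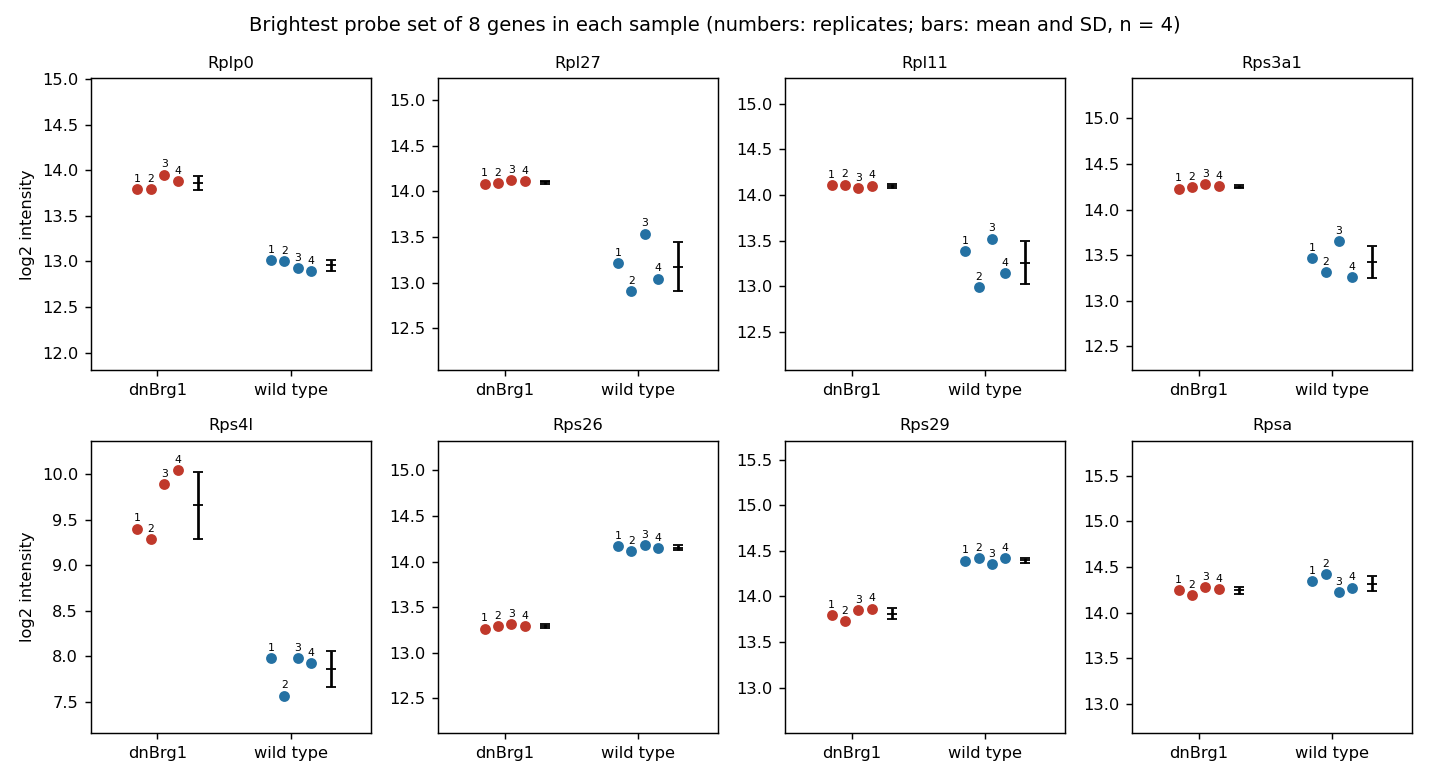
Log2 intensity (y axes, all spanning the same range) of the brightest probe set of 8 genes in the 4 dnBrg1 and 4 wild type lenses, one point per lens with its replicate number, and the mean and SD beside them. Rplp0 and Rps26 separate with tight groups, the wild type lenses of Rpl27, Rpl11 and Rps3a1 are spread with replicate 3 highest, and those of Rpsa overlap the dnBrg1 lenses.

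Different probe sets of a gene often differed in whether they were called, so that a call belongs to the probe set and not to every transcript of the gene. Of 23 genes with several probe sets, 3 had all of them called one way (Rpl22, Rpl27 and Rps14), 2 had opposite calls (Rpl7l1 and Rps4x), 10 had some called and 8 had none. Rps20, named after its values were seen, had a pair of bright probe sets with log2 fold changes of -0.08 ± 0.08 and -0.07 ± 0.09, neither called, and a pair of dim ones called lower (-0.79 ± 0.17 and -0.64 ± 0.16, limma adjusted p = 0.0054 and 0.012). Rps10, also named after its values were seen, had 3 of its 6 probe sets called higher, although its brightest was not, and 1 of the 3 calls was lost when any of 6 samples was left out (adjusted p of up to 0.084). By the design suffix of the probe sets, 14 of 28 with _a_at, 11 of 31 with _at, both with _s_at and 9 of 40 with _x_at were called. Of all probe sets on the array 40.8% were called, and shares by suffix over the array are not given here. The _x_at type can also bind related transcripts, and ribosomal protein genes have many processed pseudogenes.

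The 6 paralogs gave the largest single increase. Rps4l, a relative of Rps4x, had 9.40, 9.29, 9.89 and 10.05 in dnBrg1 lenses and 7.98, 7.57, 7.98 and 7.93 in wild type lenses. It rose 3.46-fold (log2 fold change 1.79 ± 0.19, limma adjusted p = 0.0001), far beyond the spread of either group. Rps27l, a p53-inducible relative of Rps27, fell by 2 of its 3 probe sets (log2 fold change -0.71 ± 0.15 and -0.38 ± 0.12, limma adjusted p = 0.0049 and 0.031), and its brightest had -0.30 ± 0.12 (limma adjusted p = 0.071). The smaller of these calls was lost when any of 6 samples was left out (adjusted p of up to 0.079). Rpl7l1, a relative of Rpl7, was called higher by its brighter probe set (0.48 ± 0.13, limma adjusted p = 0.015) and lower by the other (-0.41 ± 0.11, limma adjusted p = 0.014). Rpl22l1, Rpl3l and Rpl39l were not called (log2 fold change 0.08 ± 0.10, -0.23 ± 0.13 and -0.67 ± 0.35).

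The spread of the members differed between the groups. The median SD over members was 0.064 in dnBrg1 and 0.129 in wild type lenses, against 0.151 in dnBrg1 and 0.229 in wild type lenses for all probe sets. Within the wild type lenses, replicate 2 was the lowest in 66 of 101 members and replicate 3 the highest in 52, both at once in 44, against 19.5% of all probe sets. These are the wild type lenses with the largest and the smallest 3' minus 5' difference of the controls.

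The fit was repeated with the mean control difference of each sample as a covariate. It left 1 member higher and 3 lower, against 6.37% of all probe sets called (3.57% higher and 2.80% lower). Rplp0 had a log2 fold change of 0.93 ± 0.20 (limma adjusted p = 0.038) in this fit, and Rps26 of -0.94 ± 0.18 (limma adjusted p = 0.026). The other 2 were the Rps20 probe set with the larger decrease (-1.53 ± 0.33, limma adjusted p = 0.039) and the Rps27l probe set with the larger decrease (-1.31 ± 0.30, limma adjusted p = 0.045).

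The increases in Rpl27, Rpl11, Rpl19 and Rps9 were much smaller with the covariate. Their log2 fold changes were 0.20 ± 0.18, 0.20 ± 0.18, 0.02 ± 0.19 and 0.15 ± 0.19, and none was called. Rps29 kept its size (-0.52 ± 0.19, limma adjusted p = 0.14) but not its call. Rps4l had 1.28 ± 0.43 (limma adjusted p = 0.12). Of the 36 calls 4 were kept, 26 were lost with the same sign and 6 changed sign without a call, among them both Rps14 probe sets (-0.09 and -0.23). The median log2 fold change of the members was -0.07, and the median standard error was 0.195, against 0.110 without the covariate. Since the control difference separates the groups completely, its effect and that of the genotype cannot be told apart, whether a call was kept or lost.

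**Figure D4:**
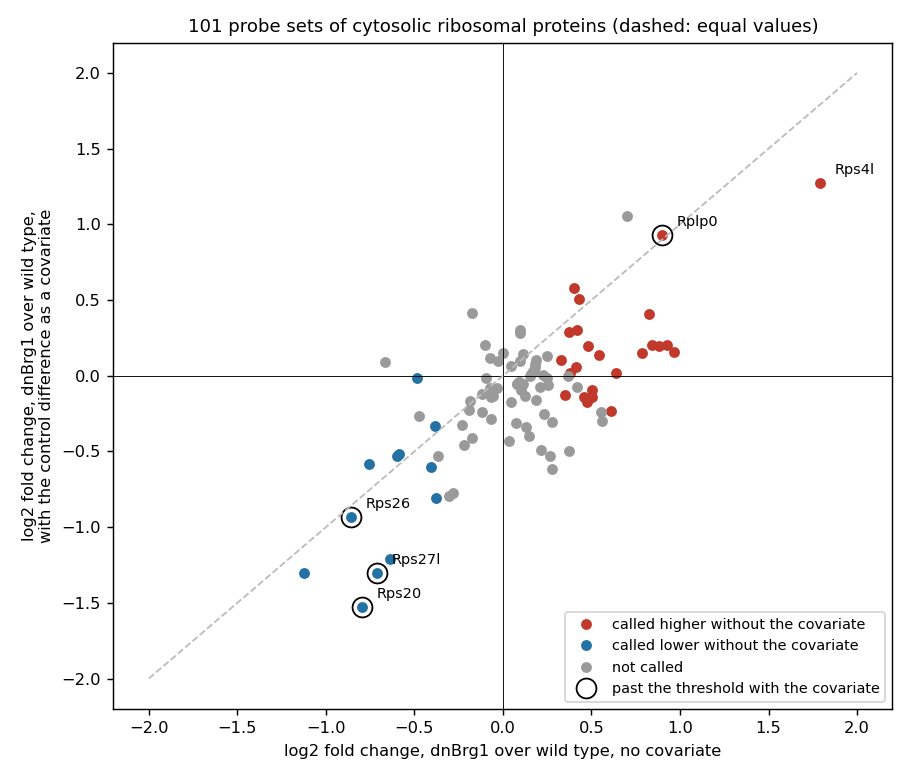
Log2 fold change (dnBrg1 over wild type) of the 101 probe sets without the covariate (x axis) and with the 3' minus 5' control difference as a covariate (y axis); the dashed line marks equal values and rings mark the 4 probe sets past the threshold with the covariate. Rplp0 and Rps26 lie near the dashed line, and most of the other called increases lie well below it.

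The description of the RNA also differs within the dnBrg1 group. With only dnBrg1 replicates 1 and 2, described like the wild type samples, 11 members were called higher and 6 lower, against 24.9% of all probe sets. With the described fraction as a covariate, 15 were called higher and 9 lower, against 29.0%. Rplp0, Rps26 and Rps4l were among the calls that stayed.

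Many genes that build the ribosome changed. Of 71 measured ribosome biogenesis genes (of 78 listed) 32 rose and 13 fell, 63.4% of the list, against 40.7% of all genes by the brightest probe set. Emg1, a methyltransferase of the 18S rRNA, rose (log2 fold change 2.35 ± 0.17, limma adjusted p = 1.9e-05), as did Ebna1bp2 (2.003 ± 0.23, limma adjusted p = 0.00017), a nucleolar factor of large subunit assembly. Bysl, which acts in small subunit maturation, fell (-1.69 ± 0.16, limma adjusted p = 5.4e-05), as did Nle1 (-1.10 ± 0.16, limma adjusted p = 0.00048). The median log2 fold change was 0.23, against -0.11 for all genes and 0.15 for the 49 ribosomal protein genes. With the control covariate 8 biogenesis genes were called higher and 2 lower, with a median log2 fold change of 0.10, and 6.33% of all genes were called. Emg1 (1.68, limma adjusted p = 0.031) and Nle1 (-1.85, limma adjusted p = 0.014) were still called in that fit, and Ebna1bp2 (0.54, limma adjusted p = 0.15) and Bysl (-0.88, limma adjusted p = 0.061) were not.

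Of 17 measured regulators of ribosomal protein genes and mRNAs (of 21 listed), 4 rose and 4 fell, 47.1% against 40.7% of all genes. Larp1, which binds the pyrimidine starts, rose (log2 fold change 0.64 ± 0.12, limma adjusted p = 0.0023), and so did Myc (0.63 ± 0.21, limma adjusted p = 0.038). Eif4ebp1, a translation inhibitor that mTOR phosphorylates, fell (-1.65 ± 0.14, limma adjusted p = 3.9e-05), as did Mlst8, a subunit of the mTOR complexes (-1.52 ± 0.31, limma adjusted p = 0.0037). With the control covariate none was called higher and 2 were called lower (Eif4ebp1 and Eif4ebp2). In that fit Larp1 had 0.19 (limma adjusted p = 0.66), Myc 0.21 (limma adjusted p = 0.85) and Mlst8 0.42 (limma adjusted p = 0.42), the last with the opposite sign.

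Mitochondrial ribosomal proteins, the family most like the cytosolic one, were called in 77.0% of 74 genes, against 40.7% of all genes. They were called higher in 43 cases and lower in 14, against 17.5% higher and 23.3% lower of all genes. Their median log2 fold change was 0.45. Their range was wider, with Mrpl27 at 2.22 and Mrpl18 at 1.81 and, at the other end, Mrps24 at -1.87 and Mrps15 at -1.13, all called. With the control covariate 8 mitochondrial genes were called higher and 5 lower, with a median of 0.17, against 6.33% of all genes called. Mrpl27, Mrpl18, Mrps24 and Mrps15 kept their calls and signs. The mitochondrial genes were dimmer than the cytosolic ones, with a median of their mean log2 intensities of 10.7 against 13.7 for the brightest probe sets of the 49 genes. The brightest probe set of any gene reached 14.76 to 14.80 on dnBrg1 arrays and 14.66 to 14.67 on wild type arrays, so that many of the 49 genes lay within 1 log2 unit of the top of the scale. How far this limits their fold changes was not tested.

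**Figure D5:**
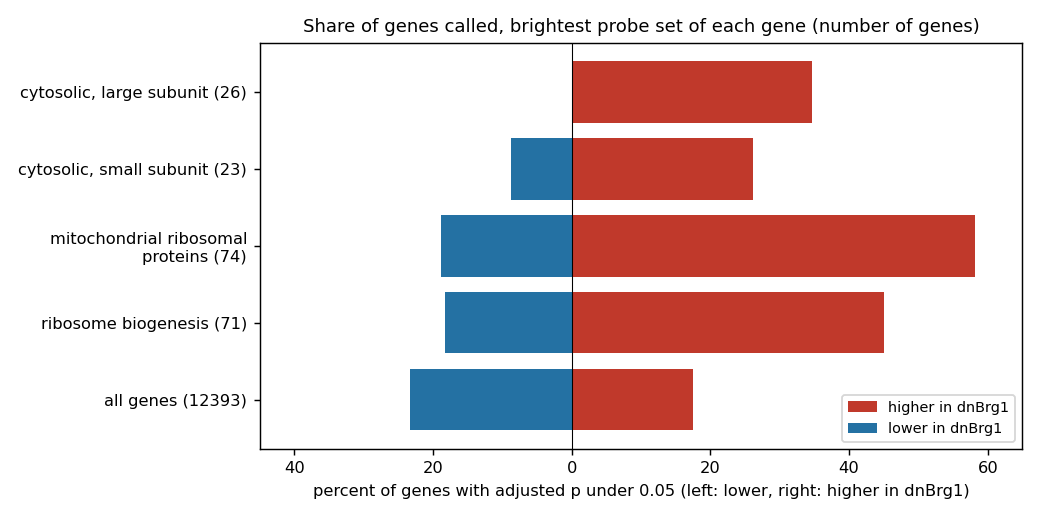
Share of genes called higher (right of 0) and lower (left of 0) in dnBrg1 lenses, in percent on the x axis, by the brightest probe set of each gene for cytosolic ribosomal proteins of the large and small subunit, mitochondrial ribosomal proteins, ribosome biogenesis genes and all genes, with the number of genes in parentheses. Mitochondrial ribosomal proteins were called in 77.0%, ribosome biogenesis genes in 63.4% and all genes in 40.7%.

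Smaller groups within the ribosome were described by the same counts. Of 5 measured genes at the peptide exit tunnel, Rpl19 and Rpl22 rose and none fell. Of 9 measured genes of the small subunit head, Rps3 rose and Rps29 fell. Of 12 measured genes whose human counterparts cause Diamond-Blackfan anemia, Rpl11 and Rpl27 rose and Rps26 and Rps29 fell, a share of 33.3%, against 40.7% of all genes. Fau, which encodes a ribosomal protein of the small subunit under another name, was not called (log2 fold change 0.18 ± 0.14, limma adjusted p = 0.33).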

How the data were processed

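Lens RNA (50 ng per array) was amplified and hybridized to Affymetrix mouse genome arrays, 1 per sample. The authors normalized the scans by robust multichip average (RMA; version not given in the sources used here). Their deposited table holds linear intensities, and log2 was taken of each. RMA is meant to equalize the distributions of the arrays, which would remove a shift of most transcripts. In the deposited values the arrays were not fully equal. The median log2 intensity was 7.69 to 7.71 on dnBrg1 arrays and 7.62 to 7.70 on wild type arrays. The highest log2 intensity was 14.76 to 14.80 on dnBrg1 arrays and 14.66 to 14.67 on wild type arrays. Precision is limited by the number of arrays. Genes were taken from the platform annotation. Groups followed the genotype in the labels. All 22626 probe sets other than 64 controls were fitted with limma 3.58.1 in R 4.3.3 (lmFit, eBayes, dnBrg1 minus wild type, no covariate), with Benjamini-Hochberg adjustment over all of them. The fit was tested on simulated data. Control differences were compared by exact permutation. The p-values reflect the spread of the samples, which the submitters call biological replicates. The brightest probe set of a gene has the highest mean over the 8 samples.

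The members and lists were chosen with earlier results of these data known. Named genes are Rplp0, Rps26, Rpl27, Rplp1, Rplp2, Rpsa, Rpl5, Rpl11, Rps6, Rps19, the 5 largest called increases and decreases without overlap in each subunit, genes with opposite calls, paralogs, and up to 2 called genes per direction in each other list; Rps29 comes from this rule. Other members named are said to have been chosen after their values were seen, and Rpl12 and Fau complete small lists. Cell type marker lists were compared by summed intensity. Alternatives covered scaling, an added constant of 16, brightness filters, the variance model, array weights, samples left out, covariates, a replicate block, the methods' t-test, and the choice of probe sets. Start sites and sequences are from RefSeq (GRCm38.p6). Sequence letters of the probes were not used here.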

Additional observations from a re-analysis of the deposited data

Results flagged for a closer look

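Among 70 groups of 4 samples (35 probe sets of named genes in both genotypes), 6 held a sample whose distance to its nearest neighbor was a large part of the group's range. Chance flags about 1 in 20 groups. In 4 cases the sample was a dnBrg1 lens. Rpl22 (brighter probe set) was 12.96 in dnBrg1 replicate 1, against 13.29 to 13.36 in the other 3. Rpl7l1 (dimmer probe set) was 9.79 in dnBrg1 replicate 4, against 10.06 to 10.10. Rplp2 was 14.50 in dnBrg1 replicate 2, against 14.54 to 14.55, and Rps19 was 13.63 in dnBrg1 replicate 4, against 13.69 to 13.70, both small distances within tight groups. In 2 cases it was wild type replicate 2, the lens with the largest control difference. Rps27l (the middle of its 3 probe sets by mean) was 11.65 there, against 12.02 to 12.07, and Rps4l was 7.57, against 7.93 to 7.98.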

How the results depend on the processing

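Counts of members called are given as higher and lower, for probe sets and for genes by the brightest probe set (24 and 12 probe sets, 15 and 2 genes in the fit without covariate). The control covariate gave 1 and 3 probe sets and 1 and 1 gene, a member median of -0.073 and 6.37% of all probe sets called, and turned both Rps14 probe sets (-0.093 and -0.23). With only dnBrg1 replicates 1 and 2 there were 11 and 6 probe sets and 9 genes higher, with 24.9% of all called. With the described RNA fraction 15 probe sets were higher, with 29.0% of all called. An adjusted p under 0.01 gave 14 and 7 probe sets, with 26.7% of all called. More calls came from the variance prior that follows intensity (38 probe sets and 23 genes higher, 5 genes lower), with 41.7% of all probe sets called. The methods' t-test after Benjamini-Hochberg also gave more (38 probe sets and 23 genes higher, 6 genes lower). Unadjusted, that test gave 43 and 21 probe sets, 26 and 8 genes. Its shares over all probe sets are not given here, and by limma's unadjusted p 49.6% of all genes were under 0.05. Genes called lower numbered 5 with 16 added before log2 (40.4% of all probe sets called) and 4 with array weights (44.1%). They numbered 4 with quantile normalization and 6 with a gene's probe sets averaged. For the alternative settings without a share in this paragraph, the share over all probe sets is not given here. With _at and _a_at probe sets alone, 7 probe sets were lower and the large minus small median was 0.23 (0.10 for all members). With probe sets that also name other genes, added after the data were seen, 27 were lower. Leaving out 1 sample at a time gave 22 to 28 and 9 to 14 probe sets, 14 to 18 and 2 to 3 genes, member medians of 0.10 to 0.16, large minus small medians of 0.09 to 0.16 and 34.0% to 45.0% of all probe sets called. The replicate numbers did not pair the samples (correlations of deviations from -0.19 to 0.16, with 0 of 4 samples closest to their own number), and the fit with the number as a block gave 23 and 11 probe sets. Of the 35 probe sets of named genes 25 were called, and 22 of these lost their call with the control covariate (both of Rps14 with a change of sign) and at most 9 under any other setting. The cause of these changes was not tested. The significance analysis of microarrays named in the methods was not run. Depth in the sense of counts does not exist for arrays. Bright members lie near the top of the scale and dim ones near background, and both limit a fold change.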

Other observations

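The 102 probe sets that name a ribosomal protein gene together with other genes, left out of the members, were called higher in 12 cases and lower in 15 (26.5%), against 40.8% of all probe sets (19.8% higher and 21.0% lower). Those of the large subunit (73) were called higher in 11 and lower in 8, with a median log2 fold change of 0.03. Those of the small subunit (29) were called higher in 1 and lower in 7, with a median of -0.07. These probe sets cannot be assigned to 1 gene, and whether they read pseudogenes as well was not checked.

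The probe set for the middle of the 18S rRNA, the RNA of the small subunit, had log2 intensities of 13.99, 13.90, 13.35 and 13.51 in dnBrg1 lenses and of 12.44, 12.32, 13.62 and 13.003 in wild type lenses. The groups overlapped through wild type replicate 3.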
